A study of Mus musculus with 16 samples.

Results

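Cdkn1a, Mdm2, Ccng1, Bax, Bbc3, Trp53inp1, Sesn2, Gdf15, Phlda3 and Btg2 are genes that p53 switches on after DNA damage and other stress. They were followed in mouse liver lacking Nrf2, Atg7 or both. The members were the probes that carry one of these 10 names on an Agilent whole-genome array: 16 of 41174 probes, for 10 of 27975 gene names. All 16 probes were well above background in all 24 scanned channels. RNA of one genotype was labelled with Cy3 and that of another with Cy5 on each array, and every pair was repeated with the dyes exchanged. A pair of dye-swapped arrays is 1 experiment, and there were 2 experiments in each of 4 comparisons. Experiments 1 and 4 compared Nrf2–/– mice (Nrf2 KO) with wild type, 2 and 5 compared Atg7F/F:Mx1-Cre mice (Atg7 cKO) with wild type, and 3 and 6 compared the double knockout Atg7F/F:Mx1-Cre:Nrf2-/- with wild type. In experiments 7 and 8 RNA of double knockout and Atg7 cKO liver shared the arrays.

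Mice were 8 weeks old when pIpC was given, and livers were taken 4 weeks after it. The design text gives pIpC to the control mice as well, so the response to pIpC itself was shared, although it does not say so of Nrf2 KO mice by name. The Mx1 promoter, through which pIpC drives Cre, is known to be active in many cell types, and which liver cells lost Atg7 was not measured. RNA came from whole liver, in which fewer cells of a type and less RNA per cell cannot be told apart. The labels number no animals, so the spread between experiments may be partly technical.

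The transcription factor p53 is held at a low level by Mdm2, a ubiquitin ligase that is itself a p53 target. DNA damage and other stress free p53, which then binds paired decamers near its targets and raises genes that halt the cell cycle, favour apoptosis or adjust metabolism. Several of these genes, Sesn2, Gdf15, Cdkn1a and Btg2 among them, also answer to other stress pathways. Atg7 is an enzyme needed to build autophagosomes, and Nrf2 (gene Nfe2l2) is the activator of antioxidant genes that accumulates in liver without autophagy.

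The RefSeq promoter table (build GRCm38.p6) held 13 windows for 9 of the members, each of 300 bases from 250 before to 50 after a gene start. Trp53inp1 has no entry. The p53 decamer, a palindromic element of 10 letters searched by its full consensus, was present in 4 of the 13 windows and in 8.36% of all 32851 windows. A pair of decamers with 0 to 13 bases between them occurred in 24 windows in all (0.0731%), of which 1 belonged to Cdkn1a. The 250 bases before the start of the 4 genes with a decamer follow in the direction of transcription, with decamers in capitals. They are shown because no other member with a window had a decamer in it. Ccng1, Bax and Mdm2 have a lone decamer, not a pair, and sequence outside the windows was not searched.
Cdkn1a, chr17:29090729-29090978, plus strand: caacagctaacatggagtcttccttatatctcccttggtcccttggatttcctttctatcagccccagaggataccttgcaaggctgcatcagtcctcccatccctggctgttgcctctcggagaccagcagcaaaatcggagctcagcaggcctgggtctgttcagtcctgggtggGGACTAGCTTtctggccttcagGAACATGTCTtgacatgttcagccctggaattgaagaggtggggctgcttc
Ccng1, chr11:40755287-40755536, minus strand: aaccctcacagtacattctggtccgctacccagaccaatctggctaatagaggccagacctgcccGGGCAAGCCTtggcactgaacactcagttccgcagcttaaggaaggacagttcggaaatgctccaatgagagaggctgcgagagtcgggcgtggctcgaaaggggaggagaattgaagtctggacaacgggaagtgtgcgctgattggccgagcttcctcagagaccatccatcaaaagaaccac
Bax, chr7:45466899-45467148, minus strand: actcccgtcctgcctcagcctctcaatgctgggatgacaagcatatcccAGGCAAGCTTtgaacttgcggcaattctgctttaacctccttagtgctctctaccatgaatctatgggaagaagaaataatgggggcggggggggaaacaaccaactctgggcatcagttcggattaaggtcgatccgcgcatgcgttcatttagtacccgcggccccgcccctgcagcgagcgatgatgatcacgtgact
Mdm2, chr10:117710759-117711008, minus strand: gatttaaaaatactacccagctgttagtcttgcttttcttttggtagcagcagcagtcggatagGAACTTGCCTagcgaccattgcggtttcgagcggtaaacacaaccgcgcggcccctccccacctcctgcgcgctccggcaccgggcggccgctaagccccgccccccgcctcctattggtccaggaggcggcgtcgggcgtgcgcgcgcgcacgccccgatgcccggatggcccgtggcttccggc
The Cdkn1a decamers lie 73 and 51 bases before this start, which is the upstream one of its RefSeq starts. The decamers of Ccng1, Mdm2 and Bax lie 185, 186 and 201 bases before theirs. The antioxidant response element core bound by Nrf2, TGACNNNGC on either strand, was in 12.4% of all windows and in 2 of the 13: that of Sesn2, 36 bases before the start, and a further Cdkn1a window. The C/EBP-ATF element TGATGNAA and the AP-1 site TGANTCA, on either strand, were in 3.97% and 7.81% of all windows and in 0 of the 13. A match describes letters in these windows only, and no binding was measured.

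Between 43.42% and 57.19% of spots on the 12 scanned arrays were well above background. The Nfe2l2 probe A_51_P411271 had log2 ratios of -3.88 (Nrf2 KO) and -3.71 (double knockout), and the Atg7 probe A_52_P34494 had -0.81 (Atg7 cKO) and -0.73 (double knockout). A further Nfe2l2 probe fell likewise (-3.04 and -3.04). The Nfe2l2 probe A_52_P523835 (-0.06 and 0.06) and the Atg7 probe A_52_P550935 (-0.08 and -0.03) stayed near 0 in the same comparisons. Experiments 1 to 3 and 4 to 6 differed in sex-linked transcripts (wild-type Xist 5.76 to 5.80 and 11.15 to 11.21 as log2 signal), as males and females do. Each comparison with wild type holds 1 experiment of each set, so the values given for the single experiments are also the values within the sets. No scanner file was used for experiments 7 and 8. Their ratios come from the deposited value table, made from processed signals, while the comparisons with wild type were computed from spot signals. The spot signals carry an offset that draws ratios of dim genes toward 0, and the processed signals do not.

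The p53 targets rose in liver without Atg7, alone or together with Nrf2, and not past the threshold in liver without Nrf2 alone. In Atg7 cKO 9 of the 10 members were higher and 0 lower at a limma adjusted p under 0.05 (Benjamini-Hochberg over all genes), where 23.4% of all 16381 genes tested were called higher and 39.7% in either direction. Their median log2 ratio was 1.09, against 0.004 for all genes. In the double knockout all 10 were higher, with a median of 1.44 against 0.006 for all genes, and 21.4% of all genes were called higher (37.4% in either direction). In Nrf2 KO limma called 0 of 10, although 3 (Ccng1, Trp53inp1 and Btg2) had an unadjusted p under 0.05, as did 3.7% of all genes. Only 2 of all genes were called there (0.0122%), 0 of them higher. The members' median in Nrf2 KO was 0.15. Atg7 cKO and the double knockout were measured against wild-type RNA in separate experiments of the same fit.

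**Figure D1:**
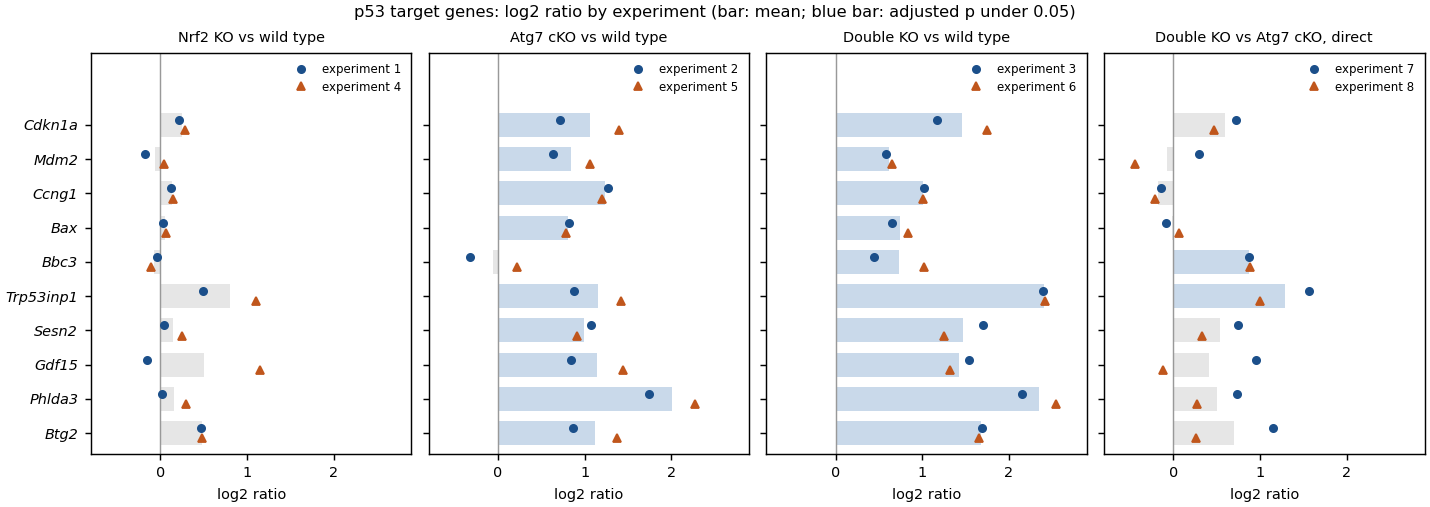
Log2 ratio (horizontal axis) of each of the 10 members (vertical axis) in the 4 comparisons. Points are single experiments, each the mean of 2 dye-swapped arrays, and bars are their mean, in blue where the limma adjusted p is under 0.05. The bars are blue for 0, 9, 10 and 2 members from left to right, and Bbc3 is the member with no blue bar in Atg7 cKO.

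Among the genes that restrain the cell cycle, Cdkn1a encodes p21, the inhibitor of cyclin-dependent kinases that carries out p53-dependent arrest. Its log2 ratios were 0.22 and 0.29 in Nrf2 KO, 0.72 and 1.40 in Atg7 cKO and 1.17 and 1.74 in the double knockout. Both double knockout experiments and both Atg7 cKO experiments lay above both of Nrf2 KO, while the ranges of Atg7 cKO and the double knockout overlapped. The mean rise was 1.06 ± 0.48 in Atg7 cKO (SD, n = 2; 2.08-fold, limma adjusted p = 0.0126) and 1.45 ± 0.41 when Nrf2 was missing too (2.74-fold, adjusted p = 0.00497). Without experiment 5 the Atg7 cKO value was 0.72 with a limma adjusted p of 0.0854, so the call was lost. The Cdkn1a probe A_51_P363947 (mm9 chromosome 17, 29237377 to 29237436) is printed as 10 spots, whose log2 ratios had a median SD of 0.062 on an array.

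Ccng1 encodes cyclin G1, an early p53 target that feeds back on the Mdm2 and p53 loop. Its ratios were 1.27 and 1.20 in Atg7 cKO, and 1.02 and 1.01 in the double knockout. Ratios of 0.13 and 0.15 in Nrf2 KO left all 3 groups without overlap. Ccng1 rose 2.35-fold in Atg7 cKO (log2 1.23 ± 0.05, SD, n = 2; limma adjusted p = 0.000273) and 2.01-fold when Nrf2 was missing too (1.01 ± 0.01, adjusted p = 0.000676). The brightest Ccng1 probe lies on mm9 chromosome 11, 40564413 to 40564472.

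Btg2 encodes an antiproliferative protein that promotes mRNA deadenylation. Its ratios were 0.47 and 0.48 in Nrf2 KO, 0.87 and 1.37 in Atg7 cKO, and 1.69 and 1.66 in the double knockout. The 3 groups did not overlap and were in that order. Btg2 rose 2.18-fold in Atg7 cKO (1.12 ± 0.36, SD, n = 2; limma adjusted p = 0.0024) and 3.19-fold when Nrf2 was missing too (1.67 ± 0.03, adjusted p = 0.000975). In Nrf2 KO the value was 0.48 ± 0.01 (unadjusted p = 0.00928 and adjusted p = 1, limma), and both experiments were above 0.

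Mdm2, the ligase that returns p53 to a low level, is the feedback arm of the pathway. Its ratios were -0.18 and 0.05 in Nrf2 KO, 0.63 and 1.07 in Atg7 cKO and 0.58 and 0.65 in the double knockout. Values of Atg7 cKO and the double knockout overlapped, and both lay above those of Nrf2 KO. Mdm2 rose 1.80-fold in Atg7 cKO (0.85 ± 0.31, SD, n = 2; limma adjusted p = 0.00483) and 1.53-fold when Nrf2 was missing too (0.62 ± 0.05, adjusted p = 0.013). The double knockout call was lost without experiment 3 (0.65, limma adjusted p = 0.082) or without experiment 6 (0.58, adjusted p = 0.0985), and on the dimmer of its probes, which gave 0.14 (adjusted p = 0.146).

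Of the genes that favour apoptosis, Bax encodes the pore-forming protein of the mitochondrial outer membrane. It gave 0.03 and 0.07 in Nrf2 KO, 0.82 and 0.79 in Atg7 cKO and 0.66 and 0.84 in the double knockout. The ranges of Atg7 cKO and the double knockout overlapped and stood clear of Nrf2 KO. Bax rose 1.75-fold in Atg7 cKO (0.80 ± 0.02, SD, n = 2; limma adjusted p = 0.00112) and 1.68-fold when Nrf2 was missing too (0.75 ± 0.13, adjusted p = 0.00118). Its probe, spotted 10 times, has the sequence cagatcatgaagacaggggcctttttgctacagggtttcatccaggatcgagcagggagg, shown because its 60 bases span 156 genomic bases on mm9 chromosome 7 (52721469 to 52721624, minus strand). It thus crosses a splice junction, so that spliced Bax mRNA was measured.

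Bbc3 encodes Puma, a BH3-only protein that relieves the block on Bax. It was the exception in Atg7 cKO, with ratios of -0.33 and 0.22 on either side of 0 (mean -0.05 ± 0.39, SD, n = 2; limma adjusted p = 0.834, 95% interval -0.51 to 0.41). In the double knockout it gave 0.44 and 1.02, and in Nrf2 KO -0.04 and -0.11. The double knockout stood above the other groups in both experiments. Bbc3 rose 1.66-fold there (0.73 ± 0.41, limma adjusted p = 0.0295). That call was lost without experiment 6 (0.44, limma adjusted p = 0.208), and without experiment 1 or 4, which leave the value at 0.73 (adjusted p = 0.0654).

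Trp53inp1 encodes a stress-induced nuclear protein that promotes phosphorylation of p53 and also binds autophagy proteins. Its ratios were 2.39 and 2.41 in the double knockout, against 0.88 and 1.42 in Atg7 cKO and 0.50 and 1.11 in Nrf2 KO. The double knockout did not overlap the other groups, which overlapped each other. Trp53inp1 rose 2.22-fold in Atg7 cKO (1.15 ± 0.39, SD, n = 2; limma adjusted p = 0.00753) and 5.28-fold when Nrf2 was missing too (2.40 ± 0.02, adjusted p = 0.00111). Without experiment 5 the Atg7 cKO value was 0.88 (limma adjusted p = 0.0609). In Nrf2 KO the ratio of 0.80 ± 0.43 had an unadjusted limma p of 0.00662 and an adjusted p of 1. A fit on single arrays with a dye effect and experiment as a random block gave a limma adjusted p of 0.00993. That fit takes the same correlation between dye-swapped arrays for every gene. For Trp53inp1 these arrays were near equal within an experiment (0.496 and 0.502, then 1.098 and 1.112). The fit counts them as partly independent, so its p-value may be too small for 2 experiments.

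Phlda3 encodes a small pleckstrin-homology protein that keeps Akt from the membrane. Ratios of 1.74 and 2.27 in Atg7 cKO and of 2.15 and 2.54 in the double knockout overlapped each other and were far above the 0.02 and 0.30 of Nrf2 KO. In Atg7 cKO Phlda3 had the largest rise of the 10 members, 4.02-fold (2.01 ± 0.38, SD, n = 2; limma adjusted p = 0.00135). Without Nrf2 as well it rose 5.07-fold (2.34 ± 0.28, adjusted p = 0.000937).

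The stress and metabolic members are Sesn2, a sestrin that restrains mTORC1, and Gdf15, a secreted hormone of the TGF-beta family made by stressed liver. For Sesn2 the ratios were 0.05 and 0.25 in Nrf2 KO, 1.07 and 0.91 in Atg7 cKO and 1.70 and 1.25 in the double knockout, with no overlap between the 3 groups. Sesn2 rose 1.99-fold in Atg7 cKO (0.99 ± 0.11, SD, n = 2; limma adjusted p = 0.00348) and 2.78-fold when Nrf2 was missing too (1.47 ± 0.32, adjusted p = 0.00132). These values are from its brightest probe, and the other Sesn2 probe gave only 0.28 and 0.48.

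Gdf15 had the widest spread of the members in Nrf2 KO (SD 0.93, n = 2) and in the direct comparison (SD 0.76). It gave -0.16 and 1.16 in Nrf2 KO, 0.84 and 1.44 in Atg7 cKO, and 1.54 and 1.32 in the double knockout. The second Nrf2 KO experiment lay within the range of Atg7 cKO. Gdf15 rose 2.21-fold in Atg7 cKO (1.14 ± 0.43, SD, n = 2; limma adjusted p = 0.0419) and 2.69-fold when Nrf2 was missing too (1.43 ± 0.16, adjusted p = 0.0224). The Atg7 cKO call was lost in 6 of 14 alternatives, with a highest limma adjusted p of 0.268 when experiment 5 was left out. It was also lost without experiment 2 (adjusted p = 0.0853), without 3 or 6 (0.0684 each), on processed signals (0.0656) and without the filter on dim probes (0.0691). The double knockout call was lost without experiment 3 (limma adjusted p = 0.149) or 6 (0.106).

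The double knockout and Atg7 cKO were also compared on the same arrays in experiments 7 and 8. Here 2 of the 10 members were higher and 0 lower, against 6.73% of all genes called higher, 8.08% lower and 14.8% in either direction, and 4 members had an unadjusted limma p under 0.05, near the 33.9% of all genes that did. Trp53inp1 was higher in the double knockout by 1.57 and 1.01 (mean 1.29 ± 0.40, SD, n = 2; 2.44-fold, limma adjusted p = 0.0186), and Bbc3 by 0.87 and 0.89 (mean 0.88 ± 0.01, 1.84-fold, adjusted p = 0.0299). Both calls were lost without experiment 7 (limma adjusted p = 0.169 and 0.191), without the filter on dim probes (0.0519 and 0.0681) and when the comparison ran through wild type with no direct array (0.0663 and 0.162). The Bbc3 call was also lost without experiment 8 (0.119), and without 1 or 4 (0.0627 each).

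The other members split into those with both direct experiments above 0 and those around 0. Btg2 gave 1.15 and 0.26 (mean 0.70, limma adjusted p = 0.0881, 95% interval 0.15 to 1.26), and passed without experiment 8 (1.15, adjusted p = 0.0445). Cdkn1a gave 0.72 and 0.47 (mean 0.60, adjusted p = 0.161), Sesn2 0.74 and 0.33 (0.54, adjusted p = 0.104) and Phlda3 0.74 and 0.27 (0.50, adjusted p = 0.153), all by limma. These 4 were above 0 in both experiments without passing the threshold. For Bax the mean difference was -0.01 (95% interval -0.25 to 0.23), for Ccng1 -0.18 (-0.41 to 0.06), and for Mdm2 -0.07 (-0.59 to 0.44), with the Mdm2 experiments at 0.29 and -0.44. Gdf15 gave 0.95 and -0.12 (mean 0.42, interval -0.63 to 1.46), which leaves its direction unsettled. A reference model over all 8 experiments called 4 members higher, and a fit on single arrays with a dye effect and experiment as a random block called 5. Sesn2 and Btg2 were called in both of these, and Cdkn1a in the second. The second counts dye-swapped arrays as partly independent, so it may call too many.

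Whether the effect of losing Atg7 differed with Nrf2 status was tested by subtracting the ratios of both single knockouts from that of the double knockout. By limma 0 of 10 members departed from additivity, where 0.72% of all genes did (0.128% above and 0.592% below), and 2 members had an unadjusted p under 0.05, against 14.5% of all genes. Bbc3 exceeded the sum by 0.86 (unadjusted p = 0.0394, adjusted p = 0.316), and Ccng1 fell short of it by a log2 difference of -0.36 (unadjusted p = 0.00542, adjusted p = 0.144). The 95% interval for Trp53inp1, -0.36 to 1.26, included 0.

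**Figure D2:**
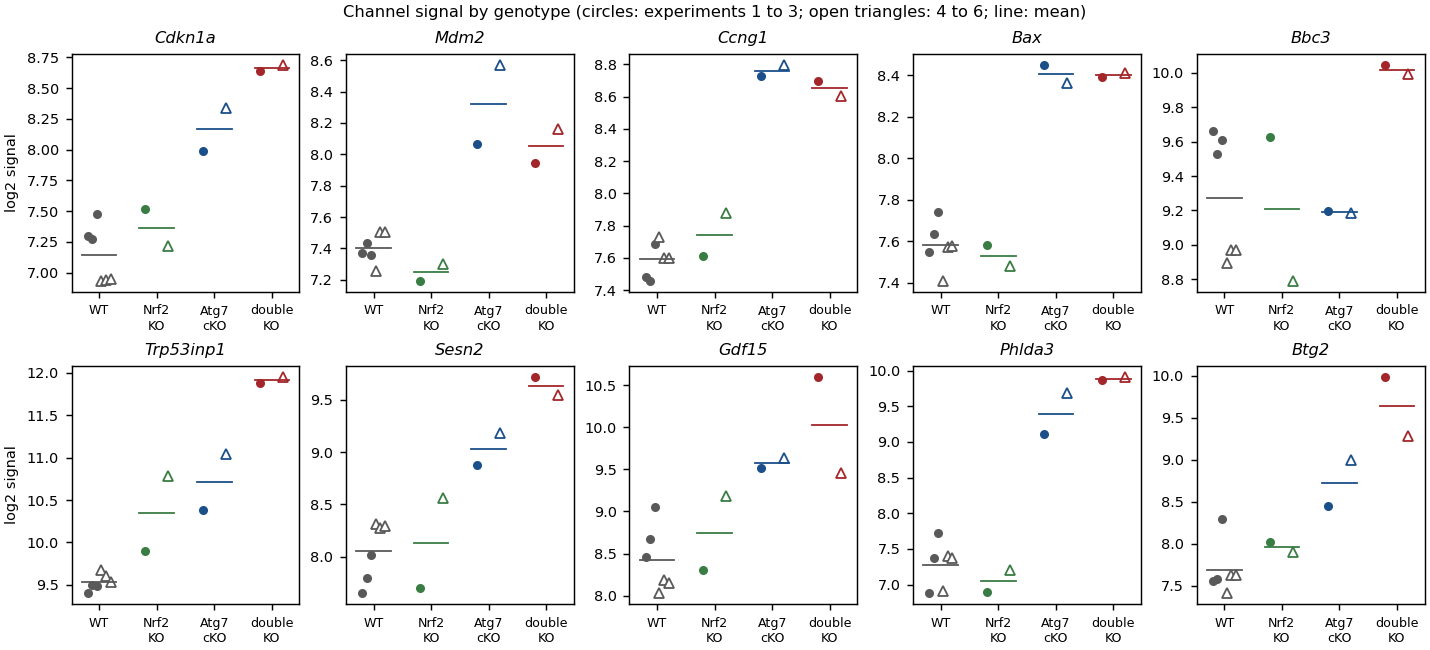
Log2 channel signal (vertical axis, scaled separately for each member) in the 6 wild-type samples and in the 2 samples of each knockout genotype. Circles are experiments 1 to 3, open triangles 4 to 6, and lines are means; for Trp53inp1 the double knockout samples lie at 11.88 and 11.95 and the wild-type samples at 9.40 to 9.68.

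Channel signals, made comparable between arrays, give the order of the genotypes within a member. They leave out the pairing of a knockout with its partner on the array, which the ratios keep. Signals of different probes are not comparable, so no member is ranked against another. Trp53inp1 had wild-type levels of 9.40 to 9.68 on the log2 signal scale (median 9.52, n = 6). Its levels were 9.90 and 10.78 in Nrf2 KO, 10.38 and 11.04 in Atg7 cKO and 11.88 and 11.95 in the double knockout. All knockout samples lay above all wild-type samples, and Nrf2 KO and Atg7 cKO overlapped as neighbours in that order. Phlda3 levels were 6.88 to 7.72 in wild type (median 7.37), 6.90 and 7.21 in Nrf2 KO, 9.11 and 9.68 in Atg7 cKO, and 9.87 and 9.91 in the double knockout. Here wild type and Nrf2 KO overlapped, and the groups without Atg7 stood apart from both. Cdkn1a levels were 6.93 to 7.48 in wild type (median 7.11), 7.22 and 7.52 in Nrf2 KO, 7.99 and 8.34 in Atg7 cKO, and 8.64 and 8.69 in the double knockout. Wild type and Nrf2 KO again overlapped, followed by Atg7 cKO and then the double knockout without overlap. The Cdkn1a ratios did overlap between Atg7 cKO (0.72 and 1.40) and the double knockout (1.17 and 1.74), and both were above 0 in Nrf2 KO (0.22 and 0.29). Bax reached 8.37 and 8.45 in Atg7 cKO and 8.39 and 8.41 in the double knockout, which overlapped, against 7.41 to 7.74 in wild type. Bbc3 levels were 8.90 to 9.66 in wild type, 8.79 and 9.63 in Nrf2 KO, 9.19 and 9.20 in Atg7 cKO, and 9.99 and 10.05 in the double knockout. The first 3 of these groups overlapped and the double knockout lay above them.

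Part of the wild-type spread follows the sets of experiments. For 5 of the 10 members the wild-type levels of experiments 1 to 3 did not overlap those of 4 to 6, against 40.9% of all genes tested. In the first set Bbc3 lay at 9.53 to 9.66 and in the second at 8.90 to 8.97. Cdkn1a (7.27 to 7.48 and 6.93 to 6.95) and Gdf15 (8.47 to 9.06 and 8.03 to 8.19) were also higher in the first set, while Sesn2 (7.65 to 8.02 and 8.27 to 8.32) and Trp53inp1 (9.404 to 9.503 and 9.54 to 9.68) were higher in the second. Sex-linked transcripts, experiment and in part slide differ between the sets as well, and their part in these differences was not tested. In Atg7 cKO 7 of 10 members had a higher ratio in experiment 5 than in experiment 2. The share of all genes that did so is not given here, so this count cannot be read as a trait of the members.

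**Figure D3:**
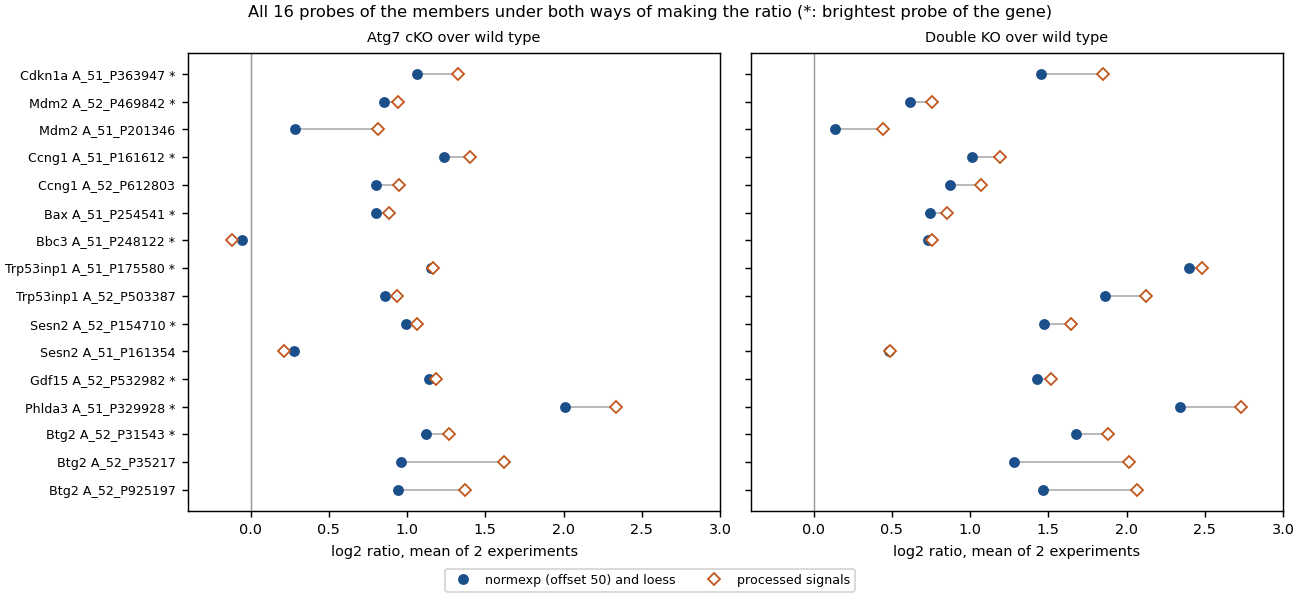
Log2 ratio (horizontal axis, mean of 2 experiments) of all 16 probes of the members (vertical axis) in Atg7 cKO (left) and the double knockout (right). Circles come from normexp-corrected and loess-normalised signals and open diamonds from processed signals; the Sesn2 probe that was not chosen lies at 0.28 and 0.48 by the first, below the 0.99 and 1.47 of the chosen one.

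Of the members, 5 were measured by more than 1 probe. The 3 Btg2 probes gave 1.12, 0.96 and 0.94 in Atg7 cKO and 1.67, 1.28 and 1.47 in the double knockout. Both Trp53inp1 probes (1.15 and 0.86 in Atg7 cKO, then 2.40 and 1.86 in the double knockout) and both Ccng1 probes (1.23 and 0.80, 1.01 and 0.87) had the same direction and call in these comparisons. Sesn2 differed most between probes. Its probe A_52_P154710 (mm9 chromosome 4, 132047974 to 132048033), matched to a cDNA clone, gave 0.99 and 1.47, and A_51_P161354 (132048858 to 132048917), matched to the RefSeq transcript, gave 0.28 and 0.48. Both probes passed in both comparisons (limma adjusted p = 0.0108 and 0.00234 for the second), so the direction of Sesn2 held while its size did not. In wild-type channels the probes were alike, at 7.985 to 8.156 for the first and 8.043 to 8.084 for the second. Brightness was averaged over all channels, so the first was chosen through its higher knockout signal.

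The dimmer Mdm2 probe A_51_P201346, spotted 10 times, gave 0.28 in Atg7 cKO (limma adjusted p = 0.0205). Its double knockout value of 0.14 was not called. On processed signals, which carry no offset, it gave 0.81 and 0.44, nearer to the 0.94 and 0.76 of the brighter Mdm2 probe. In the direct comparison Ccng1 gave -0.18 on its brightest probe and 0.11 on the other, neither of them called. The fit over single probes covered 23579 kept probes and was chosen after seeing that probes of a member differed.

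**Figure D4:**
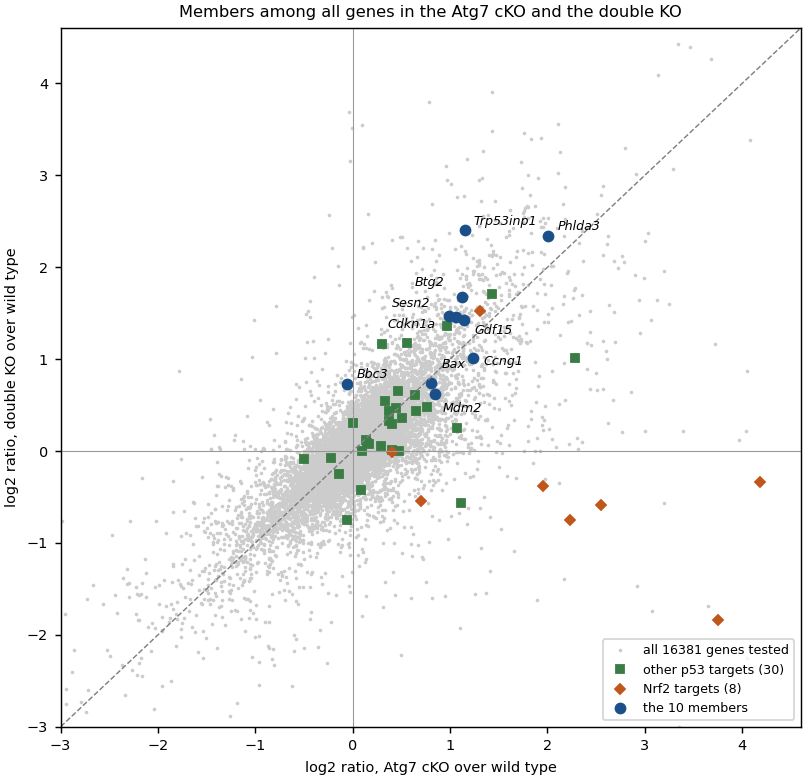
Log2 ratio in Atg7 cKO (horizontal axis) against that in the double knockout (vertical axis) for the 10 members, 30 other p53 targets, 8 Nrf2 targets and all 16381 genes tested, of which 28 lie outside the axes; both ratios are against wild type, on different arrays. The dashed line marks equal ratios: Trp53inp1 and Bbc3 lie above it, Bax close to it, and most Nrf2 targets far below it.

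Other p53 targets were called higher more often than lower in the groups without Atg7, as were all genes. Of 30 other p53 targets 18 were higher and 1 lower in Atg7 cKO (median log2 ratio 0.39), by limma. Among all genes 23.4% were called higher and 16.3% lower there. In the double knockout 14 of the 30 were higher and 3 lower (median 0.30), against 21.4% and 16% of all genes. In Atg7 cKO the largest changes were those of Ddit4l (2.28, adjusted p = 7.83e-05) and Ddit4 (1.43, adjusted p = 0.0198), which restrain mTORC1, and of Ephx1, the microsomal epoxide hydrolase (1.11, adjusted p = 0.00401). In the double knockout Ddit4 (1.71, limma adjusted p = 0.0116), the BH3-only gene Pmaip1 (1.37, adjusted p = 0.000739) and the cyclin gene Ccng2 (1.17, adjusted p = 0.00937) rose most. Ephx1, which is also an Nrf2 target, was lower than wild type in the double knockout (-0.57, limma adjusted p = 0.0312). Genes called lower, outside the naming rule and named after their values were seen, were Ei24 in Atg7 cKO (-0.51) and Perp (-0.75) and Pidd1 (-0.25) in the double knockout. In the direct comparison Fas, the death receptor, was higher (0.99) and 6 of the 30 were lower, Ddit4l (-1.86), Ephx1 (-1.71) and Tigar (-1.44) most. Among all genes 6.73% were called higher and 8.08% lower on the direct arrays. In Nrf2 KO 0 of the 30 were called by limma.

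Trp53, the gene of p53 itself, was at 0.12 in Atg7 cKO (limma adjusted p = 0.152). Its double knockout ratio was -0.12 (limma adjusted p = 0.14), and neither was called. Mdm4, the inhibitory partner of Mdm2, named after its values were seen, was at -0.03 and -0.04. Of 13 such genes tested 1 was higher and 3 were lower in Atg7 cKO, and 2 were higher and 0 lower in the double knockout. The shares over all genes were 23.4% higher and 16.3% lower in Atg7 cKO, and 21.4% and 16% in the double knockout. Trp53bp1 was the higher one in Atg7 cKO (0.21). The lower ones were Cop1 (-0.39) and Usp7 (-0.32), which act on p53 ubiquitination, and the deacetylase gene Sirt1 (-0.23). In the double knockout the phosphatase gene Ppm1d (0.26) and Trp53bp1 (0.21) rose.

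Genes that sense and repair DNA damage were called higher in 11 of 28 cases and lower in 2 in Atg7 cKO (median 0.15), and in 9 and 1 in the double knockout (median 0.14). Over all genes 23.4% were called higher and 16.3% lower in Atg7 cKO, and 21.4% and 16% in the double knockout. H2ax, the histone marked at double-strand breaks, rose by 1.35 in Atg7 cKO and by 0.89 in the double knockout. Pcna, the replication clamp, rose by 1.30 in Atg7 cKO, and the replicative ligase gene Lig1 by 0.96 in the double knockout. These are also genes of replicating cells. Cyclins, cyclin-dependent kinases and their inhibitors were higher in 12 of 16 cases and lower in 0 in Atg7 cKO (median 0.74), and in 9 and 1 in the double knockout (median 0.49). Mki67, a marker of proliferation, rose by 2.06 and 2.02, and Ccnd1, the G1 cyclin, by 1.92 and 1.87. Transcripts of arrest (Cdkn1a) and of proliferation (Mki67) were thus higher in the same RNA. Whole-liver RNA cannot tell whether the same cells carried both.

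The BCL2 family moved both ways around Bax and Bbc3. In Atg7 cKO 6 of 13 were higher and 2 lower, and in the double knockout 5 and 3. Calls over all genes also went both ways, 23.4% higher and 16.3% lower in Atg7 cKO and 21.4% and 16% in the double knockout. The effector Bak1 rose by 0.73 in Atg7 cKO, the pro-survival Mcl1 by 0.55 and then 1.05 in the double knockout, and the BH3-only gene Bmf fell by 1.27 and 1.18. Of 12 genes of the integrated stress response, a pathway that also acts on Sesn2 and Gdf15, 4 were higher and 1 lower in Atg7 cKO and 4 higher and 0 lower in the double knockout. Atf3 rose by 1.18 and 1.02, and Ddit3 by 0.83 in the double knockout, while Atf4 mRNA was lower in Atg7 cKO (-0.68). All of these were called by limma.

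**Figure D5:**
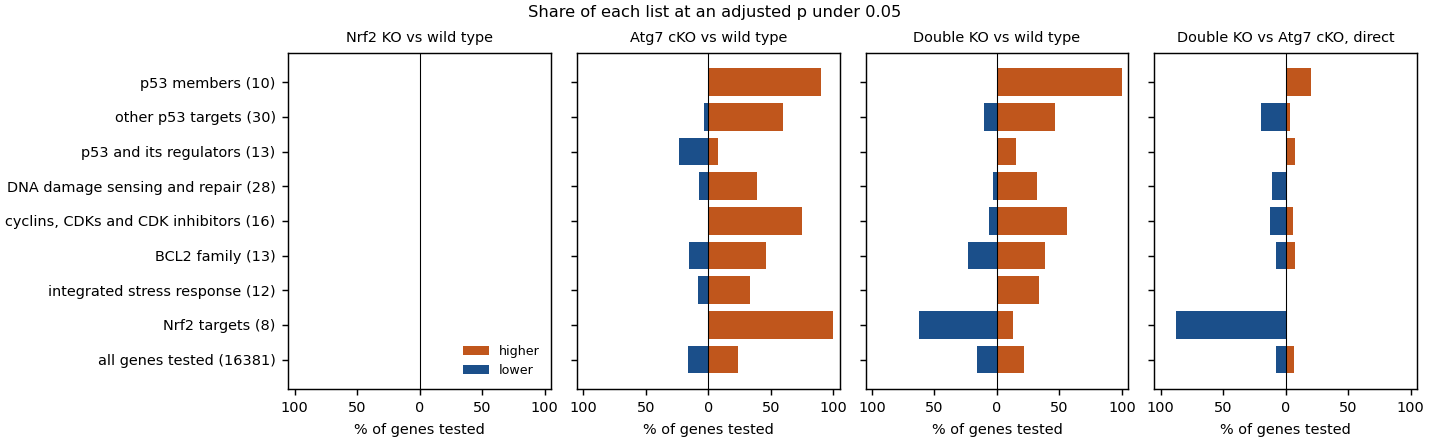
Share of each list called by limma (horizontal axis, percent of genes tested; higher to the right, lower to the left) in the 4 comparisons, with the number of genes tested in brackets. The bar of the 10 members reaches 9 of 10 in Atg7 cKO and 10 of 10 in the double knockout, while that of the Nrf2 targets turns from 8 higher of 8 to 1 higher and 5 lower.

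Targets of Nrf2, the antioxidant genes, are set beside the members. All 8 Nrf2 targets rose in Atg7 cKO (median 2.10), whereas 1 was higher and 5 were lower than wild type in the double knockout (median -0.46). On the direct arrays 7 of the 8 were lower in the double knockout (median -3.10), where the members' median was 0.52 and 0 of 10 were lower. Of all genes 23.4% were called higher in Atg7 cKO, 16% lower in the double knockout and 8.08% lower on the direct arrays.

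Markers of other liver cells moved in the same comparisons. All 8 macrophage markers rose in both groups without Atg7, and their summed signal was 6939 to 9473 in wild type, 28070 to 45890 in Atg7 cKO and 54480 to 56600 in the double knockout. The hepatocyte markers fell in 6 of 7 cases in Atg7 cKO and 5 of 7 in the double knockout (summed signal 63780 to 102300 in wild type, 39980 to 43190 and 38880 to 63860). Neutrophil markers rose in 2 of 4 cases in both (389.9 to 540.7 in wild type, 639.8 to 1301 and 2685 to 4581). The called ones were S100a8 (log2 ratios 0.647 and 1.938) and S100a9 (1.335 and 3.267). Camp (0.082 and 0.24) and Mpo (0.211 and 0.324) were not called. Stellate markers rose in 4 of 6 cases in both (1387 to 1538, 2988 to 3367 and 2624 to 2894), and cholangiocyte markers in 2 of 5 in both (800.2 to 1032, 3520 to 3602 and 3891 to 4554). The cholangiocyte sum follows Spp1 (log2 ratios 2.55 and 2.78), which other cells also express, while Krt19 (0.12 and -0.03), Krt7 (0.06 and -0.05) and Epcam (0.17 and 0.08) were not called. Lymphocyte markers rose in 2 and 3 of 7 cases (499.8 to 536.9, 541.4 to 571.4 and 605.5 to 658). Endothelial markers were higher in 2 of 6 cases in Atg7 cKO, and 1 higher and 2 lower in the double knockout (1238 to 1419, 1464 to 1559 and 949.8 to 1322). Beside these counts, 23.4% of all genes were called higher and 16.3% lower in Atg7 cKO, and 21.4% and 16% in the double knockout. In Nrf2 KO 0 of the markers passed by limma. The part of these cell types in the members' rise was not tested.

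Over the 8 experiments of the value table, and among 9447 genes with a range of at least 1 in log2 ratio, the genes whose ratios were most like the members' mean were Tnfrsf1b (Pearson's r = 0.9959), Hcst (0.9924) and Slc1a5 (0.9914). The transcript ENSMUST00000081342 (0.9903) and Amz1 (0.9895) came next. Tnfrsf1b encodes a TNF receptor of immune cells. Its log2 ratios computed from spot signals, not those that gave r, were 0.57 (Atg7 cKO) and 0.79 (double knockout). Closest to Cdkn1a alone were AK085146 (0.9852), Acsbg3 (0.9745), NAP070876-1 (0.9744), Arrb2 (0.9741) and Dbndd2 (0.9718). From spot signals AK085146 stayed near 0, at -0.015 (Atg7 cKO) and 0.069 (double knockout), and Acsbg3 gave 0.06 and 0.14. Cdkn1a itself gave 1.06 and 1.45 by that measure. NAP070876-1 (0.82 and 1.01), Arrb2 (0.63 and 0.80) and Dbndd2 (0.74 and 0.86) rose by it too. The reason for this difference was not tested. The experiments share genotypes and controls, so the r values describe likeness and carry no test.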

How the data were processed

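Scanner files of 12 arrays hold spot intensity and flags per the file headers (Feature Extraction 9.5.1.1, protocol GE2-v5_95_Feb07; 9.5.1 per the submitters' processing notes), with probe positions on mm9. The deposited values are the log10 ratio of Cy5 to Cy3 of all 16 arrays, within 0.005 of the scanner ratios where both were read. Spot intensity was corrected with normexp (offset 50) and loess in limma 3.58.1 under R 4.3.3, and dye swaps were averaged to log2 ratios, which the offset compresses for dim probes. Probes well above background in at least 4 of 24 channels were kept, the brightest one per gene by mean signal over the 12 arrays, knockout channels included. Names were updated through RefSeq (24844 probes by accession, 7855 by symbol, 8475 as in the file). One limma fit over experiments 1 to 6 (3 residual degrees of freedom) gave the comparisons with wild type and the interaction. A second, over the table's 8 experiments, with log10 turned to log2, gave the direct comparison (4 degrees of freedom). P-values were adjusted by Benjamini-Hochberg over 16381 genes, threshold 0.05. Levels are channel signals after Aquantile normalization. The fits were tested on simulated data. All 10 members were named, with up to 3 called genes per context list and comparison of largest absolute ratio, and the 5 genes most like the members, except 1 gene that is not reported here; Trp53 and Mdm4 were added as the pathway's centre. Members and lists were chosen with earlier results of these data known.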

Additional observations from a re-analysis of the deposited data

Results flagged for a closer look

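The wild-type level of Btg2 in experiment 3 was 8.29 on the log2 signal scale, apart from the other wild-type levels of Btg2. The gap to the next value was 0.75 of the whole range over the 6 wild-type samples, above Dixon's 95% critical value of 0.625. Chance puts about 1 in 20 groups of independent values past that critical value, and 10 members were examined. The wild-type levels come from experiments 1 to 3 and 4 to 6, which differ in sex-linked transcripts. The labels number no animals, so the levels may not be independent and that rate may not hold here. Experiment 3 is one of the double knockout experiments, and its Btg2 ratio of 1.69 was close to the 1.66 of experiment 6. The wild-type level of experiment 3 was also the highest of the 6 for Cdkn1a (7.475), Bax (7.738), Gdf15 (9.055) and Phlda3 (7.722). For the remaining members it was not.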

How the results depend on the processing

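Each comparison rests on 2 experiments, which limits every value. Of the member values recomputed with another background correction, offset, filter, probe, block or model, or without 1 experiment, 137 of 146 in Atg7 cKO and 138 of 146 in the double knockout kept direction and call, and 8 in each lost the call. In Nrf2 KO 141, in the direct comparison 127 and in the interaction 132 of 146 did so. In Nrf2 KO and the interaction these were values that stayed uncalled. Outside the interaction, leaving out an experiment of another comparison changes the p-value but not the ratio. Such settings could not turn a direction, so these counts overstate how far direction was tested. No paired analysis was possible because the labels give the comparisons no shared replicate numbers; the set of experiments (1 to 3 or 4 to 6) was used as a block instead.

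Genes called in Nrf2 KO numbered 2, 1 without a filter, 4 with slide as a block, 11 with set as a block, 91 in the fit on single arrays with a dye effect and experiment as a random block (below, the single-array fit), and 0 to 2 without 1 experiment. Atg7 cKO gave 6497 (3171 to 5876 without 1 experiment) and the double knockout 6126 (2821 to 6164). The direct comparison gave 2426, 4211 in the single-array fit, 5601 in the reference model, 813 through wild type, and 301 to 1827 without 1 experiment. The interaction gave 118, 6 on processed signals, 0 with slide and 323 with set as a block, 1183 in the single-array fit, and 2 to 62 without 1 experiment. The single-array fit counts dye-swapped arrays as partly independent and may call too many. Members called higher changed from 0 to 1 in the single-array fit in Nrf2 KO and the interaction. In the direct comparison they changed from 2 to 0 without a filter, 5 in the single-array fit, 4 in the reference model, 0 through wild type, and 0 to 2 without 1 experiment.

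Signs turned for values that were not called. With slide as a block these were Mdm2 (0.02) and Bbc3 (0.12) in Nrf2 KO, and Cdkn1a (-0.11), Phlda3 (-0.092) and Btg2 (-0.10) in the interaction. Btg2 in the interaction was also -0.076 on processed signals and -0.022 with an offset of 10, and Ccng1 in the direct comparison was 0.11 on its other probe, an alternative chosen after seeing the data. With 1 experiment left out, values ranged in Nrf2 KO from -0.178 to 0.049 for Mdm2 and -0.16 to 1.16 for Gdf15, in Atg7 cKO from -0.33 to 0.22 for Bbc3, and in the direct comparison from -0.44 to 0.29 for Mdm2, -0.087 to 0.061 for Bax and -0.12 to 0.95 for Gdf15. In the interaction they ranged from -0.20 to 0.48 for Cdkn1a, -0.385 to 0.052 for Mdm2, -0.87 to 0.44 for Gdf15, -0.088 to 0.443 for Phlda3 and -0.18 to 0.33 for Btg2. The cause was not tested.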
